A study of Mus musculus with 4 samples.

Results

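The genes examined here are the 9 genes named *App*, *Aplp2*, *Adam10*, *Adam17*, *Bace1*, *Psenen*, *Ncstn*, *Ide* and *Mme*, which encode the amyloid precursor protein (APP), a relative of it, enzymes that cut it, and enzymes that degrade the amyloid-β peptide (Aβ). They were found by gene name among the 54532 genes present in both deposited count tables. RNA was taken from primary microglia, the resident macrophages of the brain, grown from male CD1 mouse pups of 1 to 3 days of age. The cells grew in mixed glia with GM-CSF, the astrocyte layer was removed with trypsin, and all cultures were then held in serum-free medium with IL-34, TGFβ2, GM-CSF and cholesterol. EGCG cultures received 1 µM epigallocatechin gallate, a flavan-3-ol of green tea, for 24 h. Vehicle cultures received the vehicle without it, and the study's methods give DMSO as the solvent of the flavonoid stocks. No genetic change was made in either group. Each group has 2 libraries, labelled biological replicates 1 and 2, and the sources used here do not say which animals or cultures each library came from. P-values therefore measure the spread between these libraries.

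APP is a membrane protein that is cut in sequence. α-Secretases, of which ADAM10 and ADAM17 are members, cut within the Aβ segment, so that Aβ cannot be released. β-Secretase, encoded by *Bace1*, cuts at the start of that segment, and the γ-secretase complex, which includes nicastrin (*Ncstn*) and PEN-2 (*Psenen*), then cuts within the membrane to release Aβ. Insulin-degrading enzyme (*Ide*) and neprilysin (*Mme*) are proteases that break Aβ down, and microglia are known both to take up and to degrade it. The comparison asks whether the RNA of these genes differed after treatment.

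The stretch of *App* that codes for Aβ is shown because it is the substrate that these enzymes act on. It was read from the GENCODE transcript App-206, spans 126 bases (42 codons) of exons 16 and 17, and lies on the minus strand of GRCm38 at chr16:84962794-84965720, with an intron between the exons. Capitals mark codons 16 and 17 of the stretch, the lysine and leucine codons between which α-secretase cuts.
App, Aβ coding stretch: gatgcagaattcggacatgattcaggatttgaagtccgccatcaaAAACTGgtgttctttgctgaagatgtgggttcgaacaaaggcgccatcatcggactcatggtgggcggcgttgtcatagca
The run of lysine, leucine, valine, phenylalanine and phenylalanine codons that begins at these capitals occurs 1 time in the 770 codons of App-206. It occurs 0 times in the 751 codons of Aplp2-201, the longest coding transcript of the related gene, which is a substrate of the same enzymes.

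Total counts over all genes were 33752397 to 36265508 in 3 libraries and 54909854 in EGCG replicate 2. Markers of the microglial lineage were present, with all 10 listed genes above 3 counts in every library, among them *Csf1r* and *Ptprc*. EGCG replicate 1 stood apart from the other 3 libraries in collagen RNA and in most, but not all, of the connective tissue markers listed. *Col1a1*, a collagen chain gene, had 3962 and 1344 counts in Vehicle replicates 1 and 2 and 4 and 2040 in EGCG replicates 1 and 2. Of the same list, *Pdgfra* (122 and 43 counts against 141 and 95) and *Postn* were not low in that library, and *Eln* (1088 and 3 counts against 1 and 5) was high in Vehicle replicate 1 alone. The replicate numbers also differed widely, since 53.5% of the 13811 genes tested had an adjusted p under 0.1 between them in the edgeR quasi-likelihood test.

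**Figure D1:**
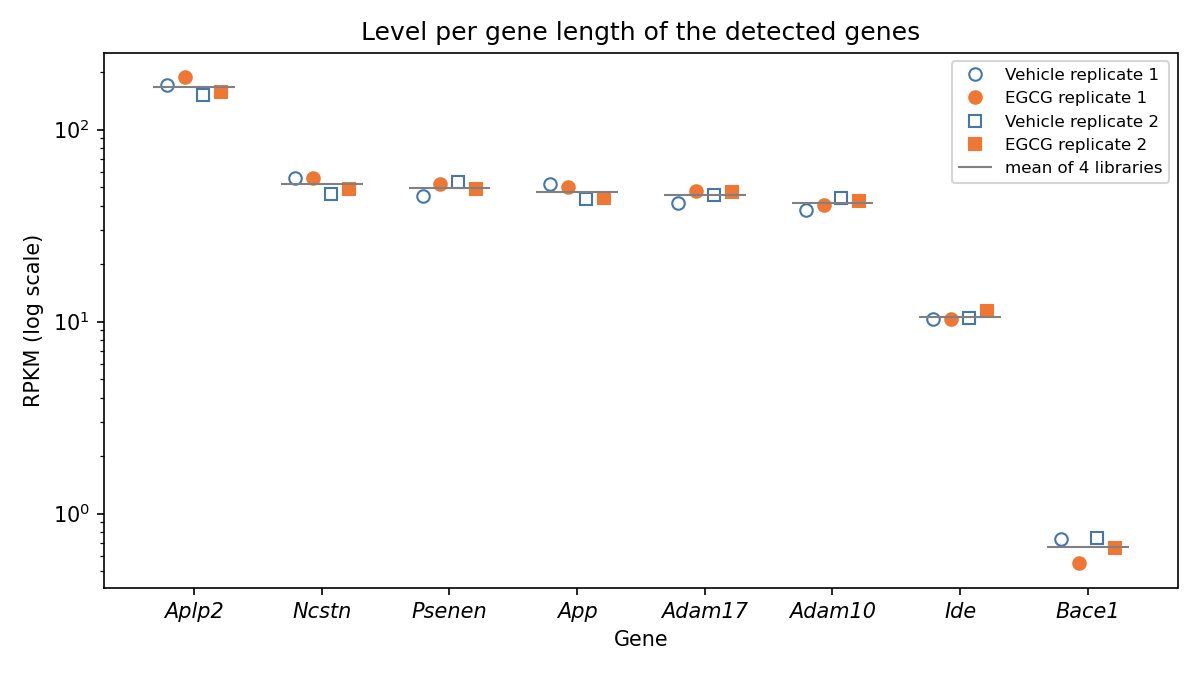
Level per gene length (RPKM, log scale) of the 8 detected genes in each library, vehicle as open and EGCG as filled symbols, circles for replicate 1 and squares for replicate 2, with the mean of 4 libraries as a line. Aplp2 (mean 166 RPKM) lies above the other genes, 5 genes lie between 41.2 and 51.9, and Ide (10.6) and Bace1 (0.673) lie below.

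Of the 9 genes, 8 passed the filter of at least 10 counts summed over the 4 libraries, and 1, *Mme*, had no read in any library. Levels of different genes are compared per length, as RPKM, that is CPM divided by gene length in kilobases, where CPM is the TMM-normalised count scaled to a common library size. *Aplp2* was the highest in every library, at 166 ± 15.9 RPKM (SD over all 4 libraries), which placed it at percentile 98.3 of the genes tested. Next came *Ncstn* at 51.9 ± 4.89, *Psenen* at 49.8 ± 3.83, *App* at 47.4 ± 4.28, *Adam17* at 45.5 ± 2.83 and *Adam10* at 41.2 ± 2.54 RPKM. Within this group of 5, neighbours in the order differed by less than the sum of their SDs. *Ide* followed at 10.6 ± 0.530 RPKM and *Bace1* at 0.673 ± 0.0891, at percentiles 70.6 and 25.0. The plot of level per gene length shows these steps.

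The order within the middle group depended on the length used. For all members but *Ide*, the length in the tables covers the exons of all annotated transcripts, which for *App* gives 12996 bases against 8167 for its longest protein-coding transcript. With the longest protein-coding transcript as the length, a choice added after the data were seen, *Psenen* (89.7 ± 6.89 RPKM) came before *App* (75.4 ± 6.81), *Adam17* (72.8 ± 4.53) and *Ncstn* (71.1 ± 6.69). *Adam10*, at 44.1 ± 2.71 RPKM, then lay below these 4 by more than their SDs. *Aplp2* stayed first, and *Ide* and *Bace1* stayed seventh and eighth.

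*App* and *Aplp2*, the substrates, lay in overlapping ranges in EGCG and vehicle. *App* (ENSMUSG00000022892, chr16:84949685-85173766 of GRCm38, minus strand) was at 674 and 568 CPM in Vehicle replicates 1 and 2, and at 654 and 569 in EGCG replicates 1 and 2. The groups overlapped, and the libraries of replicate 1 were the higher in each group. Within replicate 1 its log2 difference, EGCG minus vehicle, was -0.04 (95% interval -0.07 to -0.02), and within replicate 2 it was 0.00271 (-0.02 to 0.03). These intervals are exact binomial ones on the counts and cover counting error only, not the spread between cultures. *Aplp2* (ENSMUSG00000031996, chr9:31149557-31211815, minus strand), an APP homologue without the Aβ segment, was at 1003 and 892 CPM in vehicle and at 1099 and 917 in EGCG. It was higher with EGCG within each replicate number, by 0.13 and 0.04 on the log2 scale, but the groups overlapped.

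The α-secretase genes gave different pictures. *Adam10* (ENSMUSG00000054693, chr9:70678997-70780229, plus strand), which encodes the main α-secretase of neurons, was at 188 and 216 CPM in Vehicle replicates 1 and 2 and at 198 and 209 in EGCG. Its difference was positive in replicate 1 (log2 0.08) and negative in replicate 2 (-0.05), and the groups overlapped. *Adam17* (ENSMUSG00000052593, chr12:21323509-21373632, minus strand), which encodes the sheddase that also releases TNF, was at 296 and 326 CPM in vehicle and at 341 and 338 in EGCG. Both EGCG libraries lay above both vehicle libraries, with log2 differences of 0.20 (95% counting interval 0.16 to 0.24) in replicate 1 and 0.05 (0.02 to 0.09) in replicate 2. Of the *Adam17* exon bases 4.35% overlap *Iah1* on the opposite strand. The study's methods describe the mRNA quantification as strand-specific, while the counting program and its setting are not given in the sources used here, so values of genes with such overlaps are given with this limit.

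*Bace1* was the lowest of the detected genes and was lower with EGCG within each replicate number. *Bace1* (ENSMUSG00000032086, chr9:45838580-45864399, plus strand) had 153 and 173 counts in Vehicle replicates 1 and 2 and 112 and 232 in EGCG, which is 4.66 and 4.72 CPM against 3.50 and 4.21. Both EGCG libraries lay below both vehicle libraries. Replicate 1 gave a log2 difference of -0.41 (counting interval -0.78 to -0.05) and replicate 2 one of -0.16, where the counting interval of -0.46 to 0.13 includes no difference. The same limit touches *Bace1* most, since *Rnf214*, on the opposite strand, overlaps 15.4% of its exon bases and had 1015 to 1968 counts, and *Gm49338* overlaps 951 bases.

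The γ-secretase genes did not move together. *Psenen* (ENSMUSG00000036835, chr7:30561863-30563627, minus strand) was at 57.2 and 68.0 CPM in Vehicle replicates 1 and 2 and at 66.7 and 62.2 in EGCG. It was higher with EGCG in replicate 1 (log2 0.22, counting interval 0.13 to 0.31) and lower in replicate 2 (-0.13, -0.20 to -0.05). *Psenen* also shares 306 identical bases with *Gm12396*, a gene with 24 to 38 counts per library, and on the opposite strand *U2af1l4* and *Gm49396* overlap 9.33% and 8.71% of its exon bases. *Ncstn* (ENSMUSG00000003458, chr1:172066013-172082795, minus strand), the subunit that receives substrates, was at 223 CPM in both libraries of replicate 1, and in replicate 2 at 184 in vehicle and 196 in EGCG. Replicate 1 gave a log2 difference of -7.2e-05 and replicate 2 one of 0.09, and the 2 replicate numbers stood farther apart than the treatments. On the opposite strand *Copa*, with 9865 to 19060 counts and above *Ncstn* in every library, overlaps 4.91% of the *Ncstn* exon bases.

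Of the Aβ-degrading enzymes, *Ide* was detected and *Mme* was not. *Ide* (ENSMUSG00000056999, chr19:37268743-37337852, minus strand) was at 59.9 and 60.7 CPM in Vehicle replicates 1 and 2 and at 60.1 and 66.4 in EGCG. Replicate 1 gave a log2 difference of 0.0046 and replicate 2 one of 0.13 (counting interval 0.05 to 0.20), and EGCG replicate 1 lay between the vehicle libraries. Its largest CPM was 1.11 times its smallest, the narrowest range of the 8 genes. *Mme* (ENSMUSG00000027820, chr3:63241537-63386030, plus strand), which encodes neprilysin, had 0 counts in every library. A count of 0 allows up to 3 counts, or between 0.0544 and 0.0936 CPM per library, so neprilysin RNA was not detectable at this depth and no comparison between the groups can be made.

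**Figure D2:**
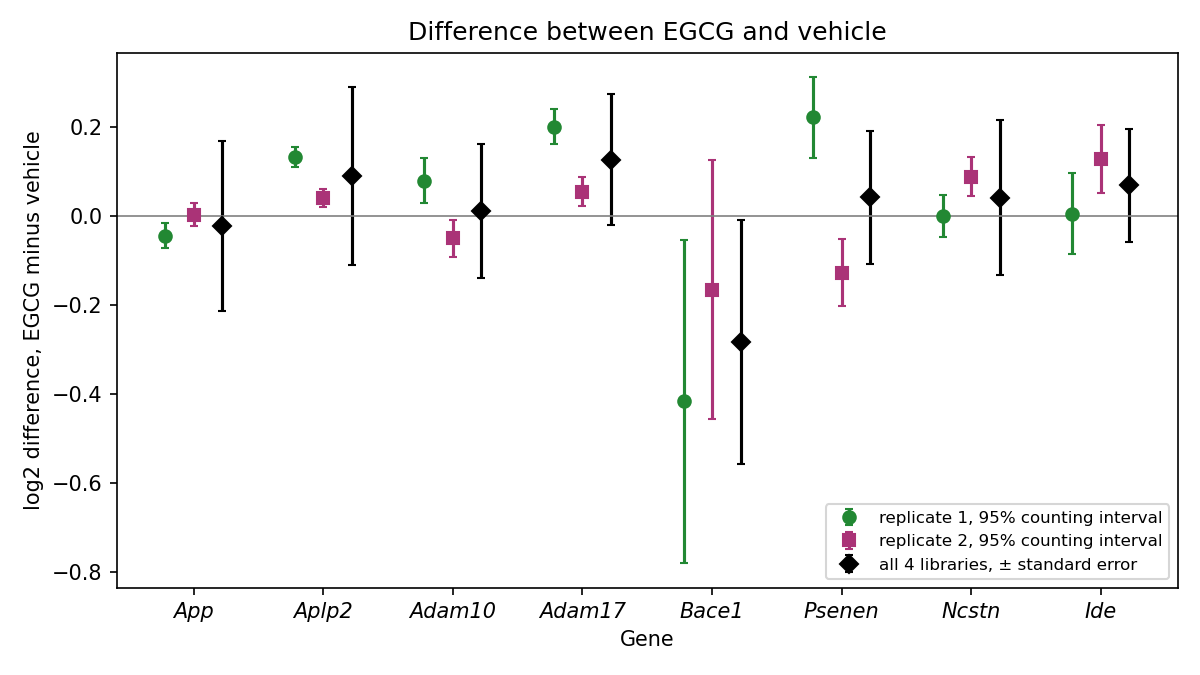
Log2 difference between EGCG and vehicle for each detected gene within replicate 1 and within replicate 2, with 95% counting intervals, and over all 4 libraries with its standard error. All 8 pooled values lie between -0.28 and 0.13, and Psenen and Adam10 lie on opposite sides of 0 in the 2 replicate numbers. App and Ncstn do so as well, with App in replicate 2 and Ncstn in replicate 1 very near 0.

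Over all 4 libraries, no gene of the set differed between EGCG and vehicle beyond the spread between libraries. The two-sided edgeR quasi-likelihood test, which had no term but treatment, called 0 of the 8 genes at an adjusted p under 0.1 (Benjamini-Hochberg over 13811 genes), where 0% of all genes tested were called. At an unadjusted p under 0.05 it gave 0 of the 8, against 0.116% of all genes tested. DESeq2 also gave 0 of the 8 at either threshold, against 0.00724% and 0.174% of all genes tested. With the replicate number as a second term (the replicate block) edgeR gave 0 of the 8 at an adjusted p under 0.1 and 0 of the 8 at an unadjusted p under 0.05, against 0.00724% and 3.21% of all genes tested. The pooled log2 fold changes ran from -0.28 for *Bace1* (standard error 0.27) to 0.13 for *Adam17* (standard error 0.15), with unadjusted p from edgeR between 0.36 and 0.944 over the 8 genes. The median of the 8 was 0.04, against 0.01 over all genes tested. In the fit with treatment only, the 95% interval reached from -0.56 to 0.51 for *App*, from -0.28 to 0.54 for *Adam17* and from -1.05 to 0.48 for *Bace1*. Changes within these bounds are not excluded by that fit. With the replicate block the intervals were narrower, at -0.16 to 0.12 for *App*, -0.02 to 0.28 for *Adam17* and -0.71 to 0.14 for *Bace1*. The labels do not say what the replicate numbers share.

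Within the replicate numbers, *Aplp2*, *Adam17* and *Ide* were higher with EGCG in both, and *Bace1* was lower in both. Over all genes tested, 29.9% were higher in both and 20.6% lower in both. The groups did not overlap in CPM for *Adam17*, which was higher, and *Bace1*, which was lower. Over all genes tested the groups did not overlap for 11.9%, with 6.39% higher and 5.51% lower. The size of the differences was also near that of other genes, without matching for level. The median absolute log2 difference of the 8 was 0.11 in replicate 1 and 0.07 in replicate 2. Over all genes tested it was 0.12 and 0.10. Without EGCG replicate 1, the library with few collagen reads, *Adam17* was 0.12 higher and *Bace1* 0.16 lower on the log2 scale, and *Aplp2*, *Psenen* and *Ncstn* changed sign, at -0.05, -0.01 and -0.06.

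The balance of α- to β-secretase RNA can be given within a library, without scaling between libraries. The counts of *Adam10* and *Adam17* together were 104 and 115 times those of *Bace1* in Vehicle replicates 1 and 2, and 154 and 130 times in EGCG. Both EGCG ratios lay above both vehicle ratios, with log2 differences within the replicate numbers of 0.57 and 0.18. An exact two-sided permutation test of this order gives p = 0.333, the smallest that 2 libraries against 2 allow. *Bace1*, with 112 to 232 counts per library, is the divisor of each ratio. The ratios are therefore not separate from its own log2 differences of -0.41 and -0.16, and the limits given for *Bace1* hold here too. The ratio of *Adam17* to *Adam10* counts was 1.58 and 1.51 in vehicle and 1.72 and 1.62 in EGCG, higher with EGCG by 0.12 and 0.11 on the log2 scale within the replicate numbers.

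**Figure D3:**
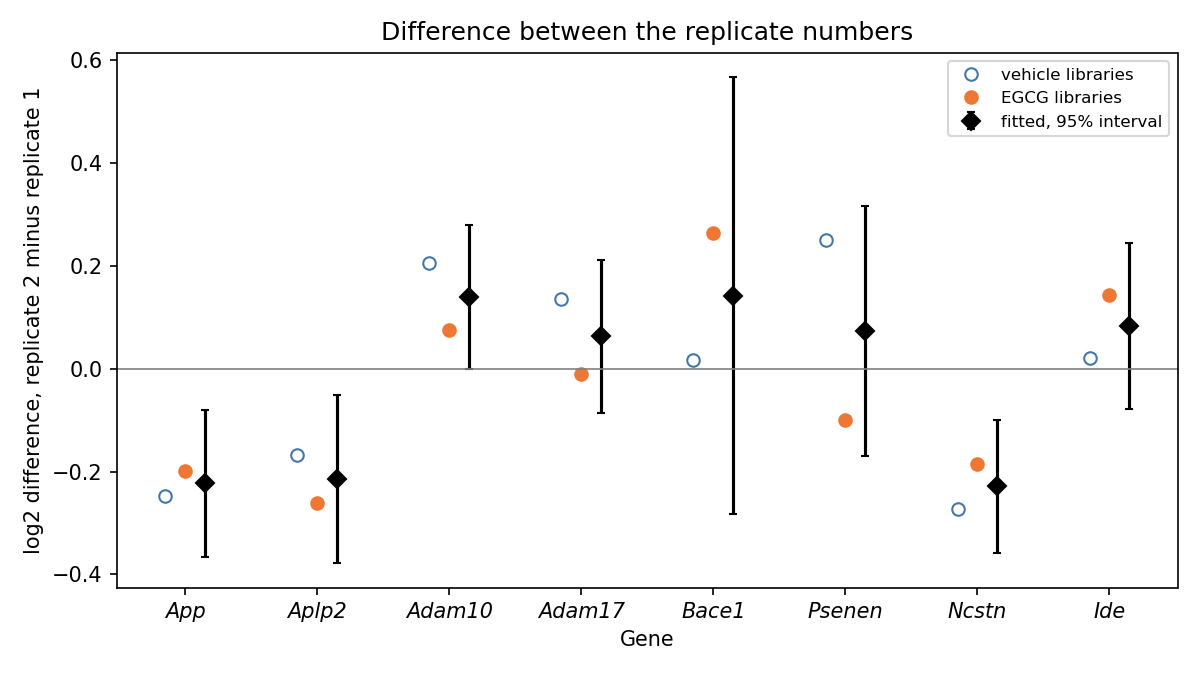
Log2 difference between replicate 2 and replicate 1 for each detected gene in the vehicle libraries, in the EGCG libraries and as fitted with its 95% interval. App, Aplp2 and Ncstn lie below 0 in both kinds of library, with fitted values of -0.22, -0.21 and -0.23, and Adam10 lies above 0 in both.

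Several of these genes differed between the replicate numbers. With treatment and replicate number in 1 edgeR quasi-likelihood model, 4 of the 8 genes differed between the replicate numbers at an adjusted p under 0.1 (3 lower and 1 higher in replicate 2). This is near the background of 53.5% of all genes tested, with 25.7% of all genes lower and 27.7% higher. The log2 difference, replicate 2 minus replicate 1, was -0.23 for *Ncstn* (standard error 0.05, adjusted p = 0.0178), -0.22 for *App* (0.06, adjusted p = 0.0262) and -0.21 for *Aplp2* (0.06, adjusted p = 0.045). *Adam10* was 0.14 higher in replicate 2 (0.05, adjusted p = 0.0949). Its call was lost with DESeq2 size factors in edgeR (adjusted p = 0.111), with a filter of 10 counts in every library (0.118) and in DESeq2 (0.266). *Psenen* and *Adam17* had differences of opposite sign in the vehicle and EGCG libraries. The median absolute difference of the 8 genes was 0.14, against 0.36 over all genes tested. The latter include genes with as few as 10 counts summed over the 4 libraries, and the medians were not matched for level. The plot of the difference between replicate numbers shows the 3 lower genes apart from the other 5. With 1 vehicle and 1 EGCG library behind each number, this test compares these libraries.

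**Figure D4:**
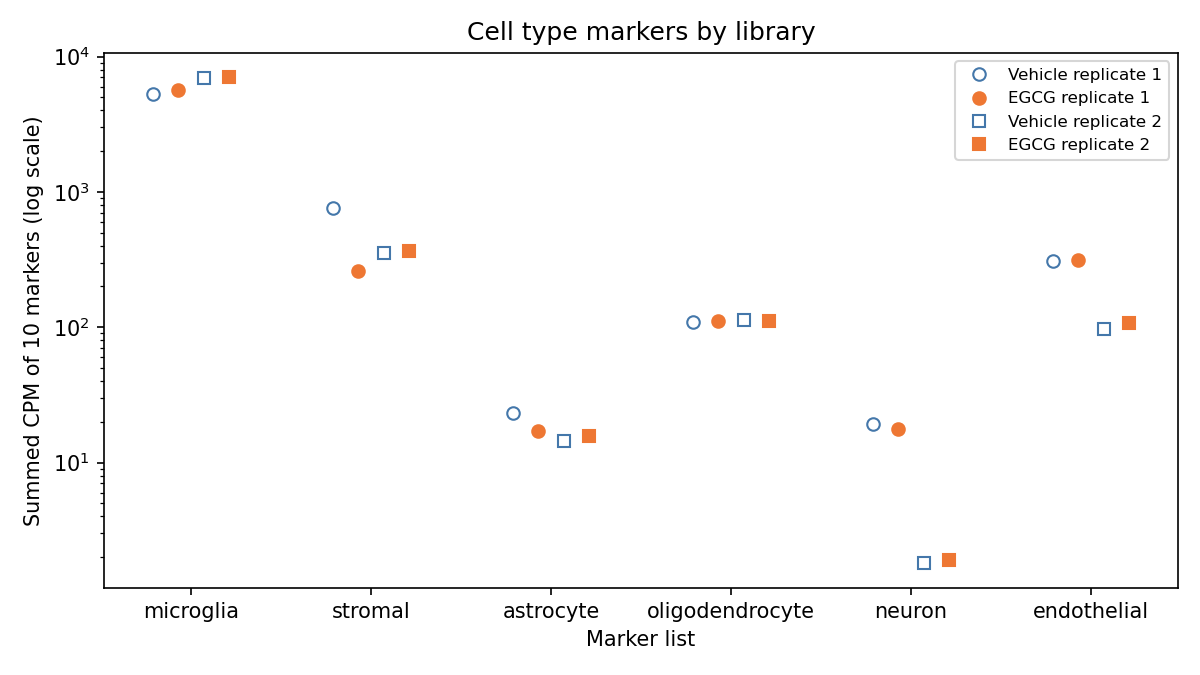
Summed CPM (log scale) of 10 markers for each of 6 cell types in each library, symbols as in the plot of levels. The stromal sum was 755 in Vehicle replicate 1 and 260 in EGCG replicate 1, and the neuron and endothelial sums were higher in both libraries of replicate 1 than in those of replicate 2.

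Because APP and its secretases are made by many cell types, markers of other cells were read beside them. In bulk RNA, fewer cells of a type and less RNA per cell cannot be told apart. The summed stromal markers were 755 and 353 CPM in Vehicle replicates 1 and 2 and 260 and 364 in EGCG replicates 1 and 2, with 6 of the 10 genes above 3 counts in every library. Most of what remained in EGCG replicate 1 was *Postn*, with 8133 counts against 8301 in its vehicle library, and *Lum* was at 0 there. Within replicate 1, *App* differed by -0.04 and *Aplp2* by 0.13 on the log2 scale. EGCG and the loss of collagen reads fall on the same library there and cannot be told apart. The part of the stromal markers in these differences was not tested. Nor was it tested for *Bace1* and *Adam17*, whose differences were larger in replicate 1.

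Summed endothelial and neuron markers stood higher in replicate 1 of each group, and summed microglial markers lower. Summed microglial markers were 5244 and 5676 CPM in Vehicle and EGCG replicate 1 and 6892 and 7021 in replicate 2. Endothelial markers, mostly *Flt1*, *Vwf* and *Ly6c1*, were at 308 and 315 CPM in replicate 1 and at 96.4 and 107 in replicate 2, while *Cldn5* and *Emcn* were at 0 in every library. *Pecam1*, of the same list, went the other way, with 2 and 3 counts in Vehicle and EGCG replicate 1 and 580 and 741 in replicate 2. Neuron markers were at 19.2 and 17.7 CPM in replicate 1, mostly *Snap25*, and at 1.80 and 1.90 in replicate 2, with 3 of 10 genes above 3 counts in every library. *App*, *Aplp2* and *Ncstn* were higher in replicate 1 as well, and the part of these markers in that difference was not tested. Astrocyte markers stood at 14.5 to 23.1 CPM, mostly *Aldh1l1*, with *Gfap*, the intermediate filament gene of astrocytes, at 2 to 47 counts and *Gja1*, a gap junction gene, at 160 and 1 in Vehicle and EGCG replicate 1. Oligodendrocyte markers, mostly *Mbp*, *Cnp* and *Mag*, stood at 110 to 112 CPM in all 4 libraries.

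**Figure D5:**
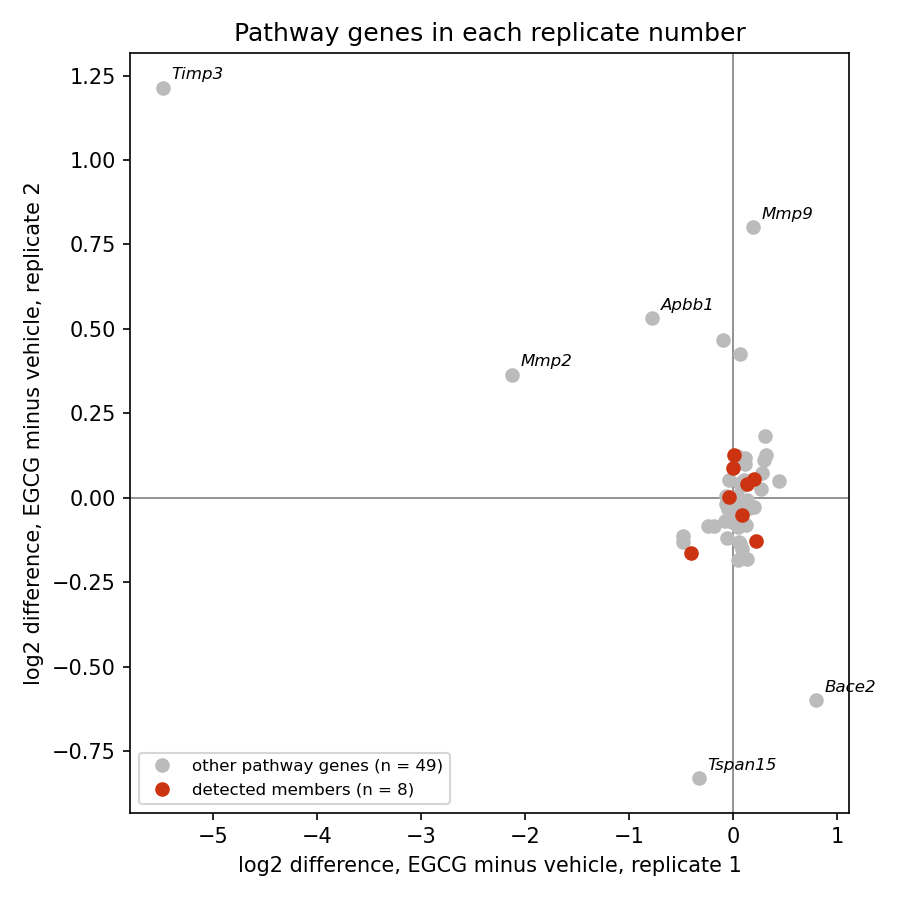
Log2 difference between EGCG and vehicle in replicate 1 (horizontal) and replicate 2 (vertical) for 49 other genes of the pathway and the 8 detected members. Most points lie near the origin, Mmp9 lies above 0 on both axes (0.19 and 0.80), and Timp3 (-5.49 and 1.21) and Mmp2 (-2.13 and 0.36) lie far to the left.

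The wider pathway, other secretases and their subunits, other Aβ-degrading enzymes, regulators of secretases, and proteins that bind or carry APP, was read from a list of 53 genes, of which 52 were matched and 49 tested. The edgeR test with no term but treatment called 0 of the 49 at an adjusted p under 0.1, against 0% of all genes tested. At an unadjusted p under 0.05 it gave 0 of the 49, against 0.116%, and the smallest p of the 49 was 0.0755. The median log2 fold change of the 49 was 0.01, the same as over all genes tested. Within the replicate numbers 16 of the 49 genes were higher and 11 lower with EGCG in both, against 29.9% and 20.6% of all genes tested. The most abundant per length were *Itm2b* at 816 RPKM, whose product inhibits Aβ aggregation, its relative *Itm2c* at 210, *Mmp9* at 76.3, and the BACE1-binding reticulon genes *Rtn3* at 73.0 and *Rtn4* at 70.3. Set beside *App* at 47.4 RPKM, *Itm2b* was far above its level in these cells.

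*Mmp9*, a matrix protease that can degrade Aβ, had the smallest p of these 49. It was at 249 and 200 CPM in Vehicle replicates 1 and 2 and at 283 and 348 in EGCG, so that both EGCG libraries stood above both vehicle libraries. The log2 difference was larger in replicate 2 (0.80) than in replicate 1 (0.19), and the pooled log2 fold change of 0.49 had a 95% interval of -0.08 to 1.07. *Aph1c*, a γ-secretase subunit gene, was higher with EGCG by 0.29 and 0.11 within the replicate numbers, and *Furin*, a convertase that matures ADAM proteases, was lower, with differences of -0.24 and -0.08. Neither passed the test, with unadjusted p of 0.472 and 0.599 in the edgeR fit. With the replicate block the unadjusted p was 0.0171 for *Mmp9*, 0.0328 for *Aph1c* and 0.0471 for *Furin*, where 3.21% of all genes tested were under 0.05, and the adjusted p was 0.995 for each.

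*Timp3*, an inhibitor of ADAM10 and ADAM17, and *Mmp2*, chosen after their values were seen, had low values in EGCG replicate 1, as the collagen genes did. *Timp3* was at 17.6 and 4.94 CPM in Vehicle replicates 1 and 2 and at 0.343 and 11.5 in EGCG. *Mmp2* counts were 239 and 110 in the vehicle libraries and 52 and 214 in the EGCG libraries. Both were lower with EGCG in replicate 1 and higher in replicate 2, and the part of the stromal markers, which moved the same way in replicate 1, was not tested.

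Between the replicate numbers 30 of the 49 genes differed at an adjusted p under 0.1 in the edgeR model with both terms, 15 in each direction, against 53.5% of all genes tested. The largest differences, replicate 2 minus replicate 1, were -2.18 for *Ace*, a peptidase with 6 to 28 counts per library, -1.83 for *Aplp1*, the third member of the APP family, and -1.07 for *Tspan5*, one of the tetraspanins that bring ADAM10 to the cell surface. *Tspan33*, another of these tetraspanins, was 1.60 higher, and *Sorl1*, a sorting receptor for APP, was 1.45 higher. *Aplp1* was at 7.16 and 1.64 CPM in Vehicle replicates 1 and 2 and at 6.68 and 2.28 in EGCG, so it was detected at a low level (1.47 RPKM) beside *App* and *Aplp2*.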

How the data were processed

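The deposited values are unnormalised read counts per gene, in 2 tables that each hold a vehicle and an EGCG column. Directional poly-A libraries were sequenced as paired reads, cleaned of adapter and poor-quality sequence and mapped to GRCm38.p6 (HISAT2), and the methods call the quantification strand-specific, while the counting program, its setting and its annotation are not given in the sources used here. Conditions came from the sample titles, and the submission sheet ties each table to a replicate number. The tables were joined on Ensembl identifiers, leaving out the 697 and 329 loci that had no such identifier. The 13811 protein-coding genes whose counts summed to 10 or more were normalised by TMM and tested in R 4.3.3 with edgeR 4.0.16, or DESeq2 1.42.0 as an alternative. Calls used an adjusted p under 0.1, as in the study's methods, and log2 values per library a prior count of 2. The fits were run on simulated counts. A minimum recovery of the changed genes was required there only of fits with both the treatment and the replicate term, not of the treatment-only fit. Gene models came from GENCODE release 21 for mouse (all 9 positions matched), and copies were sought with BLAST 2.17.0 at 90% identity over 200 bases. The members and lists were chosen with earlier results of these data known. Genes named are the members, the pathway genes highest, most different between replicate numbers or under 0.05 in a fit, the 3 highest markers of a type, and those marked as chosen later, except 1 marker that is not reported here. Other markers and overlapping genes were named after their values were seen. Intervals and floors cover counting error only.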

Additional observations from a re-analysis of the deposited data

How the results depend on the processing

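No member was called between EGCG and vehicle under any alternative run: other size factors, total counts, other filters, all biotypes, DESeq2, the replicate block, or leaving out each library. The difference between replicate numbers in vehicle correlated with that in EGCG (r = 0.64 across genes, which are not replicates), but the labels do not say what the numbers share. With the replicate block edgeR gave 0 members at an unadjusted p under 0.05, with 3.21% of all genes, and the smallest was 0.0795 for *Adam17*. Among the other pathway genes it gave 3 at that threshold in place of 0 (*Mmp9* 0.0171, *Aph1c* 0.0328, *Furin* 0.0471), none at an adjusted p under 0.1. With total counts only, *Adam10* turned to -0.022 between EGCG and vehicle, and between the replicate numbers *Adam17* (0.14) and *Ide* (0.16) were also called. Leaving out 1 library each gave differences between EGCG and vehicle of -0.16 to 0.11 for *App*, -0.049 to 0.18 for *Aplp2*, -0.086 to 0.10 for *Adam10*, 0.06 to 0.18 for *Adam17*, -0.45 to -0.16 for *Bace1*, -0.076 to 0.15 for *Psenen*, -0.11 to 0.19 for *Ncstn* and -0.036 to 0.14 for *Ide*. Where this left 1 library in a group, it was assumed to vary like the other group. Between the replicate numbers, leaving out a library leaves no residual and so no test, and the values were -0.010 to 0.14 for *Adam17* and -0.10 to 0.25 for *Psenen*, while the other 6 members kept their sign. The cause of these changes was not tested. Depth limits *Bace1* and *Mme* most, with at most 232 and 0 counts per library.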

Other observations

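The genes whose pattern over the 4 libraries lay nearest to that of *App*, by Euclidean distance of centred log2 CPM among 13810 genes, were *Snrpb* (distance 0.0142), *Tsen54* (0.0181) and *Smg5* (0.0191), which encode a spliceosomal protein, a tRNA splicing subunit and a factor of nonsense-mediated decay. *Snrpb* was at 80.2 and 67.2 CPM in Vehicle replicates 1 and 2 and at 77.5 and 68.2 in EGCG. The likeness is a description over 4 libraries.

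Transcripts on the opposite strand of 2 members were also listed. *Gm16536*, antisense to *Bace1*, had 176 and 297 counts in Vehicle replicates 1 and 2 and 220 and 444 in EGCG, more than *Bace1* itself in every library. *Gm49227*, antisense to *App*, had 283 and 201 counts in Vehicle replicates 1 and 2, against 22116 and 20820 for *App*, and 196 and 202 in the EGCG libraries. The study's methods describe strand-specific quantification, and the counting setting is not given in the sources used here.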
